A study of Mus musculus with 24 samples.

Results

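Replication-dependent histone genes encode the core histones H2A, H2B, H3 and H4 and the linker histones H1 that package new DNA during S phase. The genes described here are all those whose symbol in the platform annotation belongs to the H1f, H2ac, H2bc, H3c or H4c families, 56 of the 19057 genes named on the array, each read through its probe of highest mean signal. They comprised 6 H1, 16 H2A, 13 H2B, 9 H3 and 12 H4 genes. The symbols alone chose them, and no measured difference did.

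The data are 24 single-colour Illumina bead arrays of total RNA from FVB mice at postnatal day 4. Mice labelled SMA were compared with wild-type (WT) mice. The abbreviation is taken to mean spinal muscular atrophy, in which motor neurons degenerate for want of the protein SMN. There were 8 groups of 3 biological replicates: SMA and WT mice, each sampled in 4 places, namely 2 motor neuron columns of the spinal cord, one medial (MMC) and one lateral (LMC), as well as dorsal root ganglia (DRG) and raphe. The allele that the SMA mice carry and the way the tissue was taken are not given in the sources used here. In such bulk samples fewer cells of a type and less RNA per cell cannot be told apart.

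Most mRNAs end in a poly(A) tail, whereas the pre-mRNAs of replication-dependent histones are cut behind a short stem-loop and left without a tail. The stem-loop is bound by the protein Slbp, and the cut needs the U7 small nuclear ribonucleoprotein (U7 snRNP), whose ring holds Lsm10 and Lsm11 in place of a pair of the usual Sm proteins. SMN assembles this ring, as it does the Sm rings of the spliceosome, which is why these genes are of interest in SMA. The transcripts are made mainly in S phase, which postmitotic neurons do not enter, and those that miss the U7-dependent cut can be longer and polyadenylated. Which form of each transcript the probes read was not tested. Many members resemble one another closely in sequence, and a probe may also read other members.

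Promoter stretches of 6 members are shown because the results turn on these genes: H2ac20, the 1 member that passed, with its divergent neighbour H2bc21, which had the opposite sign, then H1f2, H2bc12, H3c10 and H4c11 from the H1, H2B, H3 and H4 classes. Sequences are from RefSeq on the mouse build GRCm38.p6 and end at the base before the start of the gene. Capitals mark CCAAT boxes (CCAAT or its reverse complement ATTGG), the octamer ATTTGCAT on either strand and the TATA box TATAAA on either strand. The H2ac20 stretch fills the 191 bases between H2ac20 and H2bc21 at chr3:96220881-96221071 and is read on the minus strand, towards H2ac20. The others are the 150 bases upstream on the plus strand, at chr13:23738657-23738806 for H1f2, chr13:22035671-22035820 for H2bc12, chr13:21717478-21717627 for H3c10 and chr13:21734884-21735033 for H4c11.
H2ac20 and H2bc21: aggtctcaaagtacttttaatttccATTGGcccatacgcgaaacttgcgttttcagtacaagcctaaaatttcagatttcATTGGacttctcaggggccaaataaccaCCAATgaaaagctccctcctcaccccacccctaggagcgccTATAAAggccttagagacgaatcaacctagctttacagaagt
H1f2: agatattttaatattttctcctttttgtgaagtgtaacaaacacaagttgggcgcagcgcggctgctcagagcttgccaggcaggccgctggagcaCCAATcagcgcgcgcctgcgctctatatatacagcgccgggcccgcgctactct
H2bc12: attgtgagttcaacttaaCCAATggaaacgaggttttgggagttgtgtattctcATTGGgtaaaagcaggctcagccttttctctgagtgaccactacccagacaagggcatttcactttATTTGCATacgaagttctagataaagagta
H3c10: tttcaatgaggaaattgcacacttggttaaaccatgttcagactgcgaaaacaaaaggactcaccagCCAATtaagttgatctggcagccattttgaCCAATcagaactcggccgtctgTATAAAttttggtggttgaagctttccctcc
H4c11: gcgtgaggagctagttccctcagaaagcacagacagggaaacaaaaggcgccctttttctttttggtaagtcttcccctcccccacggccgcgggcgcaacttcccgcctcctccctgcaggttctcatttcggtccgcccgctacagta
The shared H2ac20 and H2bc21 stretch held 3 CCAAT boxes and 1 TATA box, the H2bc12 stretch 2 CCAAT boxes and 1 octamer, and the H4c11 stretch none of these letters. Within 250 bases upstream, 42 of the 51 members with a promoter in the table held a CCAAT box (82.4%), against 33.8% of all 32851 promoters in it. TATAAA stood in 25 of 51 (49.0%), against 12.4%, and the octamer in 12 of 51 (23.5%), against 1.6%. The octamer was found in 6 of 16 H2A and 6 of 11 H2B promoters and in 0 of the H1, H3 and H4 promoters, and the CCAAT box in all 6 H1, all 16 H2A and all 11 H2B promoters but in 3 of 11 H4 promoters. These matches describe the letters and not factor binding.

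Of the 56 members, 44 were above background (detection p under 0.05) on all 3 arrays of at least 1 group: 3 H1, 12 H2A, 11 H2B, 7 H3 and 11 H4 genes. On all 24 arrays 19 members were above background, and 3, H2ac8, H2bc1 and H3c3, were on none. The other 9 that reached no group in full, among them H1f1, H2bc8 and H4c14, were above background on 1 to 7 arrays. A member was tested in a tissue where it was above background on all 3 arrays of the SMA or the WT group, which left 35 (MMC), 35 (LMC), 39 (DRG) and 42 members (raphe), and 32 in all 4. This filter lets a member in through the group where it is higher. By position 47 members lie on chromosome 13 and 9 on chromosome 3.

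Smn1 was above background on 12 of 12 WT arrays and 0 of 12 SMA arrays, with a highest SMA level of 4.98 and a lowest WT level of 9.42 on the log2 scale. The share of probes above background ran from 33.7% on SMA LMC replicate 2 to 49.7%. Of 6 motor neuron markers, all 6 were above background on every MMC array and 5 or 6 on every LMC array. So were 3 of the 4 sensory neuron markers on every DRG array and 4 of 4 serotonergic markers on every raphe array. Sums and means of a gene list cover only its genes tested in at least 1 tissue. This kept 3 of 4 sensory neuron, 3 of 4 oligodendrocyte precursor and 4 of 7 endothelial and pericyte markers. The motor column samples also carried glial signal: 4 or 5 of 5 oligodendrocyte and 5 of 5 astrocyte markers were above background on each MMC array. Each tissue was run on a chip of its own, with WT at the first and SMA at the last 3 positions, so tissue and chip, and genotype and chip position, cannot be told apart.

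In MMC histone genes were mostly higher in SMA than in WT mice, in all 5 classes, and 1 of them, H2ac20, passed the test. Of 35 members tested, 33 had a fitted difference above 0, against 54.7% of all 8742 genes tested. The median of the 35 was 0.84 on the log2 scale, against 0.06 over all genes. H1f4, H2ac21, H2bc11, H2bc12, H3c7, H4c6 and H4c17 were tested only through the SMA group, and no member only through WT. Such an entry favours a rise. All of them but H2ac21 were above 0, and H2bc12 and H4c17 had no overlap. H2ac20 was the 1 member of 35 past an adjusted p of 0.05, beside 1.27% of all genes (111). In 15 of the 35 (42.9%) all 3 SMA arrays lay above all 3 WT arrays, which held for 8.51% of all genes, and in 0 the SMA arrays lay below (6.11% of all genes). The same number, 15 of 35, had an unadjusted p under 0.05, beside 14.4% of all genes in either direction.

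**Figure D1:**
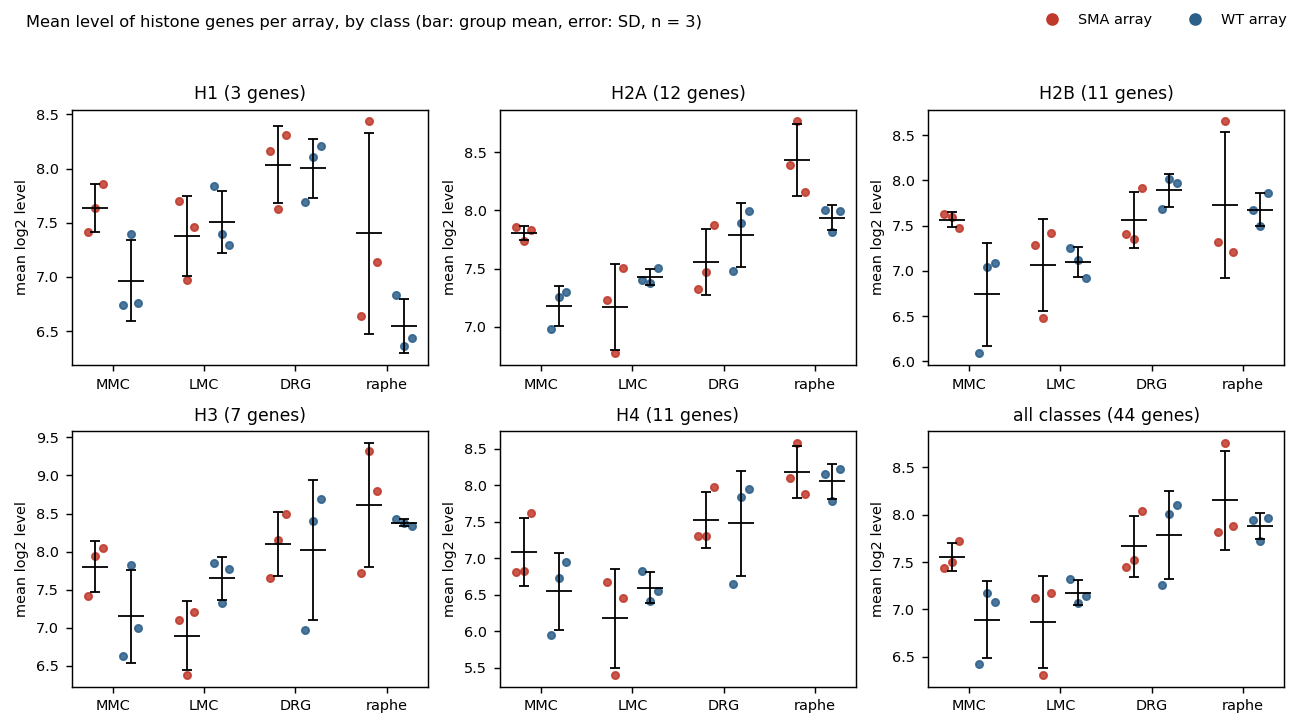
Mean log2 level of the histone genes above background in at least 1 group, on each array, by class and over all 44 genes; points are arrays (SMA red, left; WT blue, right of each pair), bars are group means and error bars SD (n = 3). Over all 44 genes the SMA MMC arrays lie between 7.44 and 7.72 and the WT MMC arrays between 6.43 and 7.17, while SMA LMC replicate 2 (6.31) lies below and SMA raphe replicate 2 (8.76) above the other arrays of their tissues.

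H2ac20 encodes a core histone H2A. Its log2 level was 10.38, 10.11 and 10.11 on the SMA MMC arrays and 8.79, 9.30 and 9.37 on the WT MMC arrays. The groups did not overlap, and the SMA arrays were closer together than the WT arrays. The gene rose 2.06-fold (log2 difference 1.04, SE 0.244, adjusted p = 0.0319, limma). Over 17 other settings its difference stayed between 0.54 and 1.16 and its adjusted p between 0.0281 and 0.41, and 9 of them ended the call. Among these were leaving out WT MMC replicate 1 (0.106), SMA MMC replicate 1 (0.105) or SMA MMC replicate 3 (0.0591), and fitting the 6 MMC arrays alone (0.41). A second H2ac20 probe, above background on only 6 of the 24 arrays, gave 0.03, and the mean of both probes gave 0.54 (adjusted p = 0.31).

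Other H2A genes lay close to H2ac20. The class had 7 of 8 tested members above 0 and a median of 0.90. In 5 of the 8 SMA lay above WT without overlap, beside 8.51% of all genes. H2ac13 differed by 0.90 (adjusted p = 0.0592), H2ac24 by 1.00 (0.0881) and H2ac7 by 0.92 (0.104). H2ac21 did not share the direction, with 7.10, 6.58 and 6.06 in SMA and 8.36, 6.62 and 4.95 in WT MMC, a difference of -0.06. Its WT arrays spread over more than the difference, and WT replicate 3 was below background.

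H2B genes had 8 of 9 members above 0 and 5 without overlap, SMA above WT (8.51% of all genes). Their median was 1.30, the highest of the classes with all arrays. Without WT MMC replicate 1 it was 0.67, below the H2A median of 0.75. H2bc12 had the largest fitted difference of the 35 members, with 8.75, 8.19 and 8.55 in SMA and 4.96, 7.98 and 7.68 in WT MMC; the difference was 1.63 (adjusted p = 0.202). The WT value of 4.96 is below background and belongs to replicate 1. Without that array the difference was 0.67. H2bc11 showed the same array, with 7.47, 8.10 and 7.87 in SMA and 4.87, 6.74 and 7.70 in WT. Its difference of 1.38 (adjusted p = 0.288) became 0.60 without it, and its groups overlapped. H2bc15 did not depend on it: its levels were 8.27, 7.74 and 7.83 in SMA and 6.44, 6.71 and 6.65 in WT, and the difference was 1.35 (adjusted p = 0.217) with and 1.27 without WT replicate 1. H2bc21, which shares its promoter stretch with H2ac20, went the other way, with 8.65, 8.68 and 8.28 in SMA against 8.59, 9.11 and 9.22 in WT. Its difference was -0.44 (adjusted p = 0.513), and another H2bc21 probe, above background on 11 arrays, gave 0.34.

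Among the 3 linker histone genes tested, H1f2, which encodes the somatic H1.2, stood out from H1f4 (0.12) and H1f5 (0.52). Its level was 10.56, 10.05 and 10.42 in SMA and 8.31, 8.66 and 9.92 in WT MMC. The groups did not overlap, and WT replicate 3 came close to the lowest SMA array. The difference of 1.38 (SE 0.374) had an adjusted p of 0.0679, and of 0.0105 without WT MMC replicate 3. The other H1f2 probe gave 0.64.

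The H3 and H4 genes were above 0 in every tested member in MMC, 6 of 6 and 9 of 9, with medians of 0.67 and 0.59. In the H3 class 0 of 6 members were without overlap, beside 8.51% of all genes with SMA above WT. H3c10, an H3 gene, had 8.59, 9.42 and 9.79 in SMA and 8.37, 9.06 and 8.33 in WT MMC, a difference of 0.68 (adjusted p = 0.494). In the H4 class 4 of 9 were without overlap (background 8.51%), H4c11 and H4c17 among them. H4c11 had 10.19, 10.51 and 10.19 in SMA and 9.04, 10.01 and 9.27 in WT MMC, a difference of 0.86 (adjusted p = 0.264). H4c17 was above background on all 3 SMA MMC arrays and on no WT MMC array, so it was tested only through the SMA group. Such an entry favours a rise without overlap. Its SMA levels were 5.52, 5.30 and 6.49. On average SMA was at least 1.4-fold higher, taking WT at the lowest signal above background (adjusted p = 0.345). The 29 tested members on chromosome 13 were all above 0, with a median of 0.85, and 4 of the 6 on chromosome 3, with a median of 0.50.

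WT MMC replicate 1 carried part of the MMC difference. It was the lowest of the 6 MMC arrays for 27 of the 35 members, against 28% of all genes tested, and had 30 members above background, against 41 and 33 on the other WT MMC arrays and 38 to 40 on the SMA MMC arrays. Without it the median was 0.57, with 28 of 36 members above 0 (49.1% of all genes), while the median over all genes was -0.01. Of the 36, 0 passed (background 1.29%) and 6 had an unadjusted p under 0.05 (16.7%, background 14.6%). In 15 of 36 (41.7%) the SMA arrays still lay above the WT arrays, beside 12.4% of all genes, and in 1 of 36 below (2.78%, background 13.1%); with 3 against 2 arrays this is a weaker condition. By class the medians without it were 0.57 for H1, 0.75 for H2A, 0.67 for H2B, 0.49 for H3 and 0.28 for H4. The summed signal of the 5 astrocyte markers was 12.87 to 13.13 in SMA and 12.43 to 12.92 in WT MMC (log2), lowest on the same WT array, and that of the 5 oligodendrocyte markers 12.21 to 13.04 in SMA and 12.59 to 13.10 in WT MMC. The 4 endothelial and pericyte markers summed to 11.05, 11.12 and 10.73 in SMA and 11.15, 11.18 and 11.73 in WT MMC, narrowly without overlap. Their means overlapped, at 7.17 to 7.68 in SMA and 7.43 to 8.66 in WT MMC. Only 2 of these markers were tested in MMC, 1 above 0 and 1 below. Without WT MMC replicate 1, 4 markers of this list were tested, 1 above 0 and 3 below, with a median of -1.25. Of these 4, 1 passed, lower in SMA (background 1.29%). The mean of the 3 oligodendrocyte precursor markers was 9.55 to 9.62 in SMA and 9.68 to 9.90 in WT MMC, without overlap, while their summed signals overlapped. Of these 3 markers 2 had a difference above 0 and 1 below, with a median of 0.17, so the lower mean was not shared by the list. The part of these lists in the MMC result was not tested.

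**Figure D2:**
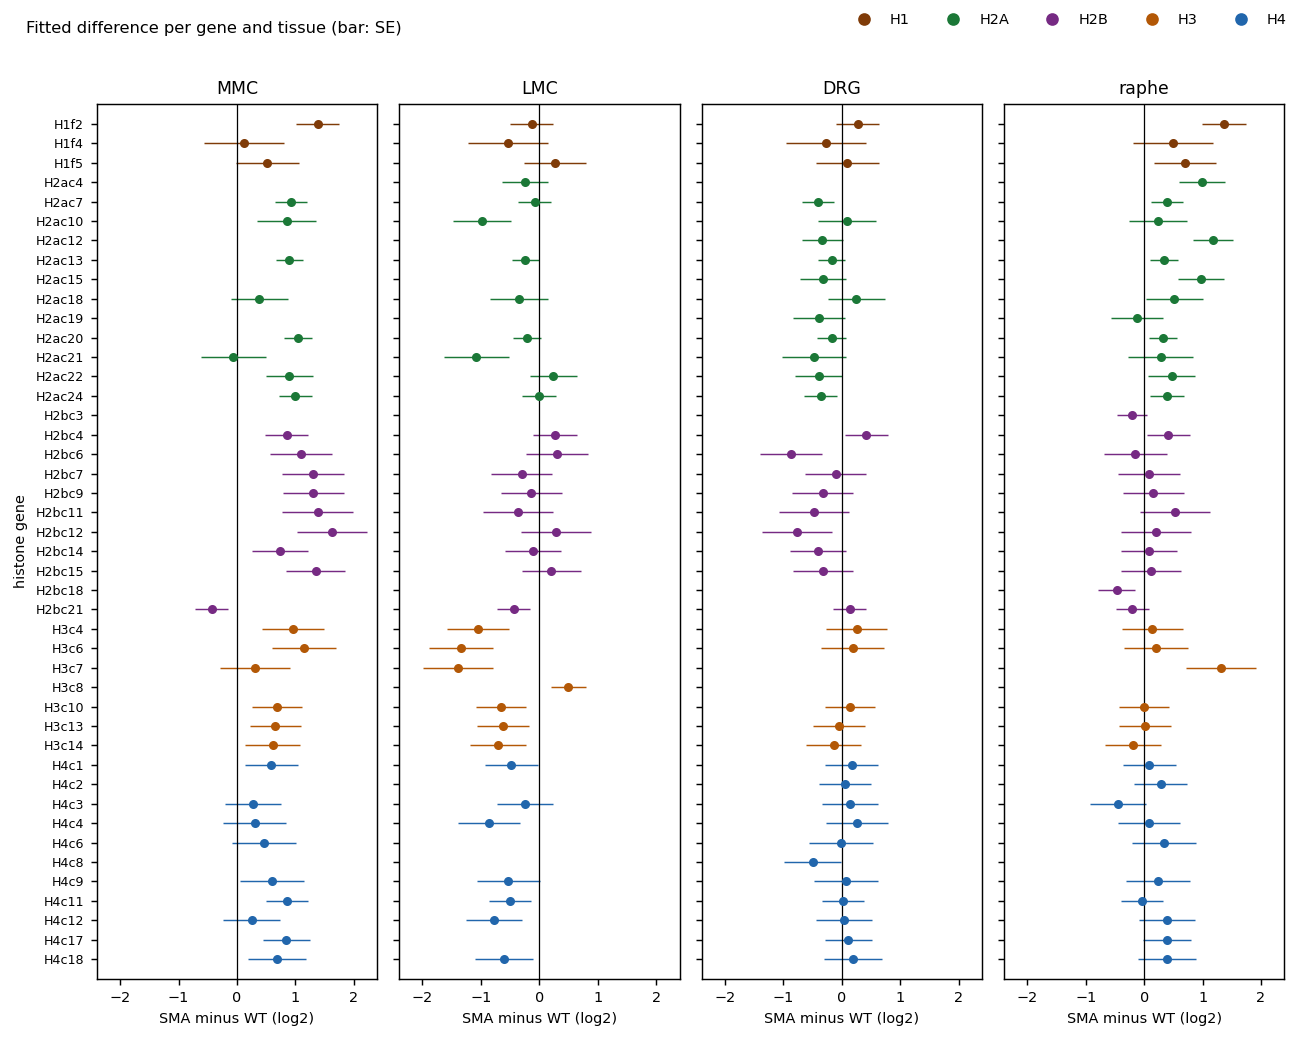
Fitted SMA minus WT difference (log2, x axis) of each of the 44 histone genes (rows) in the tissues where it was tested; points are coloured by class and bars are SE. Right of 0 lie 33 of 35 points in MMC, 18 of 39 in DRG and 33 of 42 in the raphe; left of it lie 28 of 35 in LMC.

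In LMC the histone genes were mostly lower in SMA than in WT mice, most in the H3 class, and none passed. Of 35 members tested, 28 were below 0, against 47% of all 9056 genes, with a median of -0.35, against 0.03 over all genes. Tested only through the WT group were H1f4, H2ac4, H2ac21, H2bc7, H2bc9, H2bc11, H3c6, H3c7, H4c3, H4c4, H4c9, H4c12 and H4c18. All of these were below 0. H1f5 and H3c8 were tested only through the SMA group and were above 0. Such an entry favours the direction found. By limma 0 of 35 passed, as did 2 genes in all (0.0221%), and 2 of 35 had an unadjusted p under 0.05 (5.71%, background 6.72%). In 6 members (17.1%) all SMA arrays lay below all WT arrays, which held for 4.43% of all genes, and in 1 (2.86%), H2bc6, above, which held for 5.82%. The class medians were -0.13 for H1, -0.24 for H2A, -0.11 for H2B, -0.71 for H3 and -0.53 for H4.

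Of the 6 members without overlap on the low side (4.43% of all genes), 5 were H3 genes of the 7 tested, and the sixth was H2ac21. H3c6 had 7.42, 5.59 and 7.32 in SMA and 8.16, 7.84 and 8.36 in WT LMC, a difference of -1.34 (SE 0.541, adjusted p = 0.723). SMA replicate 2 was below background for it. H3c7 had 4.74, 4.55 and 5.31 in SMA, above background on 1 array, and 6.73, 5.76 and 6.28 in WT LMC, a difference of -1.39 (adjusted p = 0.723). H3c4 had 7.53, 5.95 and 7.14 in SMA and 7.88, 7.60 and 8.27 in WT, a difference of -1.05 (0.723), and H3c10 had 8.45, 7.62 and 8.32 against 8.71, 8.55 and 9.10, a difference of -0.66 (0.758). In all 4 of these genes replicate 2 was the lowest SMA array, and the other SMA arrays also lay below the WT arrays. H2ac21 had 5.12, 5.40 and 5.87 in SMA and 6.68, 6.81 and 6.15 in WT LMC, a difference of -1.08 (0.723), and was above background on 1 SMA array.

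The members with the largest differences above 0 in LMC were small in size. H3c8, the 1 H3 gene above 0, had 5.57, 6.04 and 5.70 in SMA and 6.06, 4.82 and 4.95 in WT, a difference of 0.50 (adjusted p = 0.748), with 1 of 3 WT arrays above background. H2bc6 had 8.78, 8.21 and 8.21 in SMA and 8.15, 8.13 and 8.03 in WT (0.30, adjusted p = 0.922). Its other probes, above background on 23 and 14 arrays, gave -0.41 and 0.80. H2bc12, which had the largest difference in MMC, had 8.58, 7.24 and 8.08 in SMA and 7.73, 7.69 and 7.65 in WT LMC (0.28, adjusted p = 0.94). Its SMA arrays lay on both sides of the WT arrays. The other H2bc12 probe, above background on 22 arrays, gave -0.72. H1f5 had 5.81, 5.99 and 5.49 in SMA and 5.99, 5.32 and 5.17 in WT (0.27, adjusted p = 0.933). H2ac20, with 9.41, 8.87 and 9.56 in SMA and 9.39, 9.67 and 9.42 in WT LMC, differed by -0.21 (adjusted p = 0.876).

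Much of the LMC picture rested on SMA LMC replicate 2. The mean over the 44 members was 6.31 on it and 7.12 and 7.17 on the other SMA LMC arrays, against 7.06 to 7.32 on the WT LMC arrays. It was the lowest of the 6 LMC arrays for 25 of 35 members, and also for 30.8% of all genes tested, while it was the highest for 40.1% of all genes. It had 23 of 56 members above background, against 35 to 41 on the other LMC arrays. Replacement histones, whose mRNAs are mostly polyadenylated, were low on it and S phase genes were not. Of 8 replacement histones 5 were above background on it, with a mean of 6.94 against 8.37 and 8.50 on the other SMA LMC arrays. Their summed signal was less far apart, 11.85 against 12.06 to 12.33 on the other LMC arrays (log2). The summed S phase signal was the highest of the LMC arrays, 12.16 against 11.02 to 11.84 (log2). Cell type markers set it apart as well. The 6 motor neuron markers summed to 11.97 on it, against 12.36 to 12.56 on the other LMC arrays, and the 5 astrocyte markers to 11.73, against 12.35 to 12.47. The 3 sensory neuron markers, 2 of them above background on each LMC array, summed to 9.76 on SMA LMC replicate 2, against 11.63 to 11.91. The sensory and motor neuron lists share Prph, so their sums are not independent. The 3 oligodendrocyte precursor markers were highest on SMA LMC replicate 2, at 12.42, against 11.61 to 11.91. The part of these lists, and of the array's lower share of probes above background, in the LMC result was not tested beyond leaving the array out.

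Without SMA LMC replicate 2 the histone genes were evenly split, with 19 of 38 members above 0 (53.1% of all genes) and 19 below, and a median of 0.00. The class medians became 0.14 for H1, -0.01 for H2A, 0.39 for H2B, -0.48 for H3 and -0.01 for H4. H2B then had 8 of 9 members above 0, where all arrays had given 4 of 9, and H3 kept 6 of 7 below. H3c7 stood at -1.23, H3c6 at -0.75, H3c4 at -0.58 and H3c10 at -0.40, each with an adjusted p of 1. Again 0 passed (background 0.0315%), and 1 of 38 had an unadjusted p under 0.05 (2.63%, background 2.79%). SMA lay below WT without overlap in 7 (18.4%, background 9.22%) and above in 4 (10.5%, background 10.4%).

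**Figure D3:**
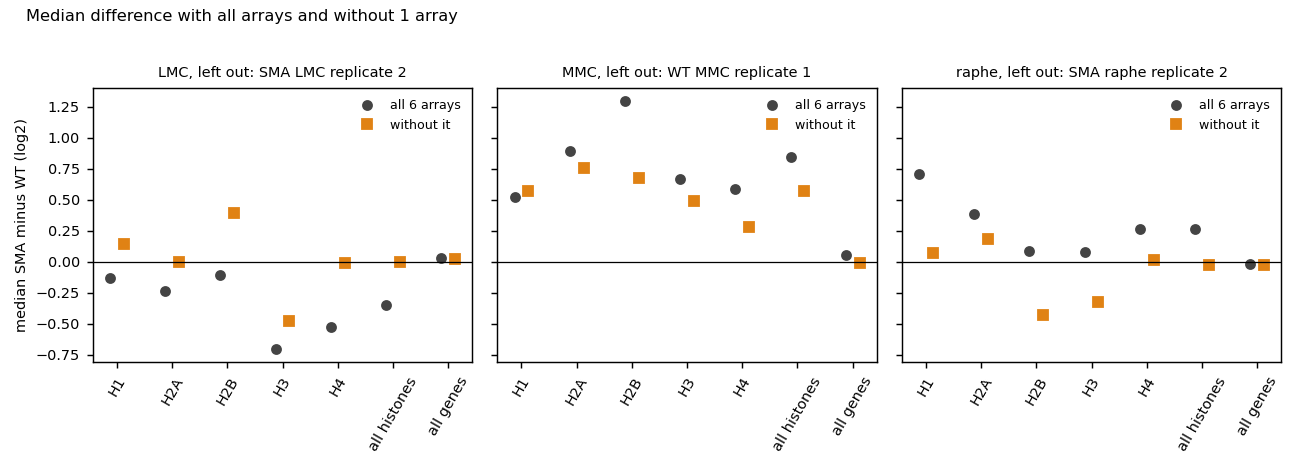
Median SMA minus WT difference (log2, y axis) of each histone class, of all histone genes and of all genes tested, with all 6 arrays of the tissue (circles) and without 1 array (squares). Without SMA LMC replicate 2 the median of all histone genes is 0.00 and that of H3 -0.48; without WT MMC replicate 1 all 5 classes stay above 0; without SMA raphe replicate 2 the H2B median is -0.43.

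The genotype differences were set against each other in a test of the MMC difference minus the LMC difference. Of 37 members tested, 36 were above 0, against 51.9% of all 9670 genes, and the median was 1.13, against 0.03 over all genes. By limma 0 of 37 passed (background 0.062%), and 11 had an unadjusted p under 0.05 (29.7%, background 9.38%). The largest was H3c6, at 2.49 (SE 0.766, adjusted p = 0.347), and H2ac20 had 1.26 (adjusted p = 0.325), H1f2 1.51 (0.425) and H4c11 1.36 (0.436). H2bc21 was at 0.00 and H3c8, at -0.30, was the 1 member below 0. Without SMA LMC replicate 2 the median was 0.81, with 37 of 39 members above 0 (again 51.9% of all genes), 0 passing (background 0.0502%) and 8 with an unadjusted p under 0.05 (20.5%, background 7.19%).

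In DRG the histone genes did not differ in a common direction. Of 39 members tested, 18 were above 0 (45.5% of all genes) and 21 below, with a median of -0.05, against -0.03 over all 9920 genes. By limma 0 passed (background 0.0101%) and 0 had an unadjusted p under 0.05 (background 1.41%). The H2A and H2B medians were -0.33 each, and those of H1, H3 and H4 were 0.10, 0.14 and 0.08. H2bc4 was the 1 member whose groups did not overlap (2.56%, background 3.63%), with 10.47, 10.28 and 10.15 in SMA and 9.68, 9.81 and 10.15 in WT DRG, a difference of 0.42. Its lowest SMA and highest WT values were equal to 2 decimals. The other H2bc4 probe, above background on all 24 arrays, gave 0.02. H1f2 had 11.43, 11.48 and 11.45 in SMA and 11.49, 10.83 and 11.23 in WT (0.27).

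The lowest DRG differences were those of a pair of H2B genes. H2bc6 had 7.85, 7.86 and 9.07 in SMA and 8.96, 9.14 and 9.27 in WT DRG (-0.86), and H2bc12 had 7.55, 7.34 and 8.53 in SMA and 8.52, 8.49 and 8.73 in WT (-0.77). In both, SMA replicate 3 lay among the WT arrays. For all 4 named DRG genes the adjusted p was 1. WT DRG replicate 1 was the lowest array for 20 of 39 members and WT DRG replicate 3 the highest for 20. The median was -0.41 without WT replicate 1 and 0.15 without WT replicate 3, so its sign was not settled. With the arrays scaled to a common median in place of quantiles it was -0.30, where the median over all genes was -0.225.

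**Figure D4:**
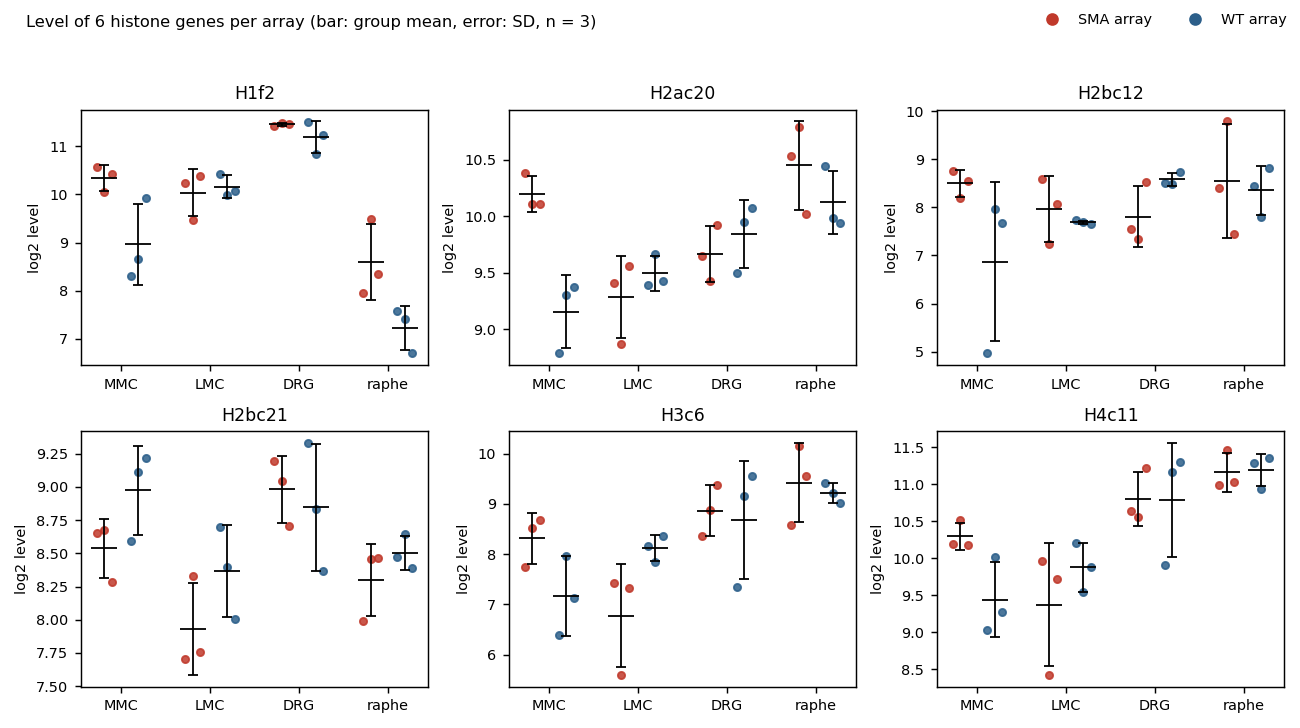
Log2 level of 6 histone genes on each array, SMA (red) left of WT (blue) in each tissue; bars are group means and error bars SD (n = 3). In MMC the SMA points of H1f2, H2ac20, H2bc12 and H4c11 lie above the WT points, in LMC the SMA points of H3c6 lie below the WT points, and in the raphe the SMA points of H1f2 lie above the WT points.

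In the raphe the histone genes were on balance slightly higher in SMA mice, most in the H1 and H2A classes, and none passed. Of 42 members tested, 33 were above 0, against 47.4% of all 9416 genes, with a median of 0.26, against -0.02 over all genes. By limma 0 of 42 passed (background 0.276%) and 5 had an unadjusted p under 0.05 (11.9%, background 6.7%). SMA lay above WT without overlap in 5 (11.9%, background 6.61%), the H1 gene H1f2 and the H2A genes H2ac4, H2ac12, H2ac15 and H2ac21. The class medians were 0.70 for H1, 0.39 for H2A, 0.08 for H2B, 0.08 for H3 and 0.26 for H4.

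H1f2 had 7.96, 9.48 and 8.35 in SMA and 7.58, 7.41 and 6.70 in WT raphe. All SMA arrays lay above the WT arrays, and replicate 2 was the highest. The difference was 1.37 (SE 0.374, adjusted p = 0.197), 1.54 by the other H1f2 probe and 0.93 without SMA raphe replicate 2 (adjusted p = 0.442). It passed when arrays were weighted by their quality (1.44, adjusted p = 0.0207). H2ac12 had 6.85, 6.45 and 6.54 in SMA and 5.28, 5.29 and 5.73 in WT raphe, a difference of 1.18 (adjusted p = 0.264), in which replicate 2 was the lowest SMA array. H2ac4 differed by 0.99 (0.54) and H2ac15 by 0.97 (0.574).

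H3c7 had 5.76, 7.61 and 8.23 in SMA and 5.97, 5.84 and 5.84 in WT raphe, a difference of 1.32 (adjusted p = 0.701), with SMA replicate 1 below every WT array. At the other end H2bc18 had 6.23, 4.91 and 5.01 in SMA, above background on 1 array, and 5.91, 5.48 and 6.18 in WT (-0.47, adjusted p = 0.879). H4c3 had 6.58, 7.53 and 6.79 in SMA and 7.37, 6.92 and 7.95 in WT (-0.45, adjusted p = 0.975). The groups of all 3 genes overlapped.

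SMA raphe replicate 2 was the highest of the 6 raphe arrays for 35 of the 42 members, against 15.2% of all genes. Its mean over the 44 members was 8.76, against 7.82 and 7.88 on the other SMA arrays and 7.72 to 7.97 on the WT arrays. The summed S phase signal was also highest on it, 11.73 against 10.82 and 11.17 on the other SMA arrays (log2), and that of replacement histones, 13.44 against 12.86 and 13.19. The neuron markers differed by genotype in the raphe: the summed signal of the 4 serotonergic markers was 13.07, 13.16 and 13.46 in SMA and 12.30, 12.86 and 12.64 in WT (log2), without overlap. All 4 had a difference above 0, with a median of 0.63, and of 0.71 without SMA raphe replicate 2. The 3 sensory neuron markers, low in the raphe, summed to 6.88 to 7.07 in SMA and 7.56 to 8.02 in WT. The part of these lists in the raphe result was not tested. Without this array the median of the histone genes was -0.03, with 21 of 43 members above 0 (47.6% of all genes), 0 passing (background 0.415%) and 2 with an unadjusted p under 0.05 (4.65%, background 8.33%). The H2A median stayed above 0, at 0.18 with 11 of 12 members, while H2B had 10 of 11 members below 0 and a median of -0.43.

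Averaged over the 4 tissues, 33 of 44 members were above 0, against 49.4% of all genes, with a median of 0.10. By limma 0 passed (background 0.0536%) and 2 had an unadjusted p under 0.05 (4.55%, background 6.13%), H1f2 and H2bc4. H1f2 was the largest, at 0.72 (SE 0.187, adjusted p = 0.269), and H2bc4 had 0.49 (adjusted p = 0.659). H1f2 was thus the member with the largest difference above 0 in the raphe and over tissues and among the 4 largest in MMC, while in LMC it differed by -0.13 (10.23, 9.47 and 10.38 in SMA against 10.43, 9.98 and 10.08 in WT). Without SMA LMC replicate 2 the mean over tissues had 38 of 44 members above 0 (49.7% of all genes), a median of 0.22, 0 passing (background 0.0619%) and 5 with an unadjusted p under 0.05 (11.4%, background 6.59%).

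The members of highest mean level in the H2A, H2B, H3 and H4 classes had overlapping groups in the comparisons not yet described. H2bc4, the brightest H2B gene, had 9.58, 9.63 and 8.20 in SMA and 8.01, 8.94 and 7.89 in WT MMC, a difference of 0.85 (adjusted p = 0.282). In LMC it had 8.82, 9.58 and 9.01 in SMA and 8.62, 9.09 and 8.89 in WT (0.27, adjusted p = 0.905), and in the raphe 8.18, 9.61 and 8.84 in SMA and 8.31, 8.68 and 8.40 in WT (0.41, adjusted p = 0.965). Its difference was thus above 0 in all 4 tissues. H4c11 had 9.96, 8.42 and 9.73 in SMA and 10.20, 9.54 and 9.88 in WT LMC (-0.51, adjusted p = 0.771), with replicate 2 the lowest SMA array. In DRG H4c11 had 10.64, 10.55 and 11.22 in SMA and 9.90, 11.17 and 11.29 in WT (0.02). In the raphe it had 10.99, 11.46 and 11.03 in SMA and 11.28, 10.94 and 11.35 in WT (-0.03).

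H2ac20, the member that passed in MMC, had 9.65, 9.43 and 9.92 in SMA and 9.50, 9.95 and 10.07 in WT DRG (-0.17, adjusted p = 1). In the raphe it had 10.53, 10.79 and 10.02 in SMA and 10.44, 9.99 and 9.94 in WT (0.33, adjusted p = 0.917). H3c10 had 9.39, 9.79 and 10.33 in SMA and 8.62, 10.11 and 10.35 in WT DRG (0.14, adjusted p = 1). In the raphe H3c10 had 9.29, 11.05 and 10.27 in SMA, on both sides of the WT values of 10.19, 10.20 and 10.24, and it differed by 0.00 (adjusted p = 1).

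**Figure D5:**
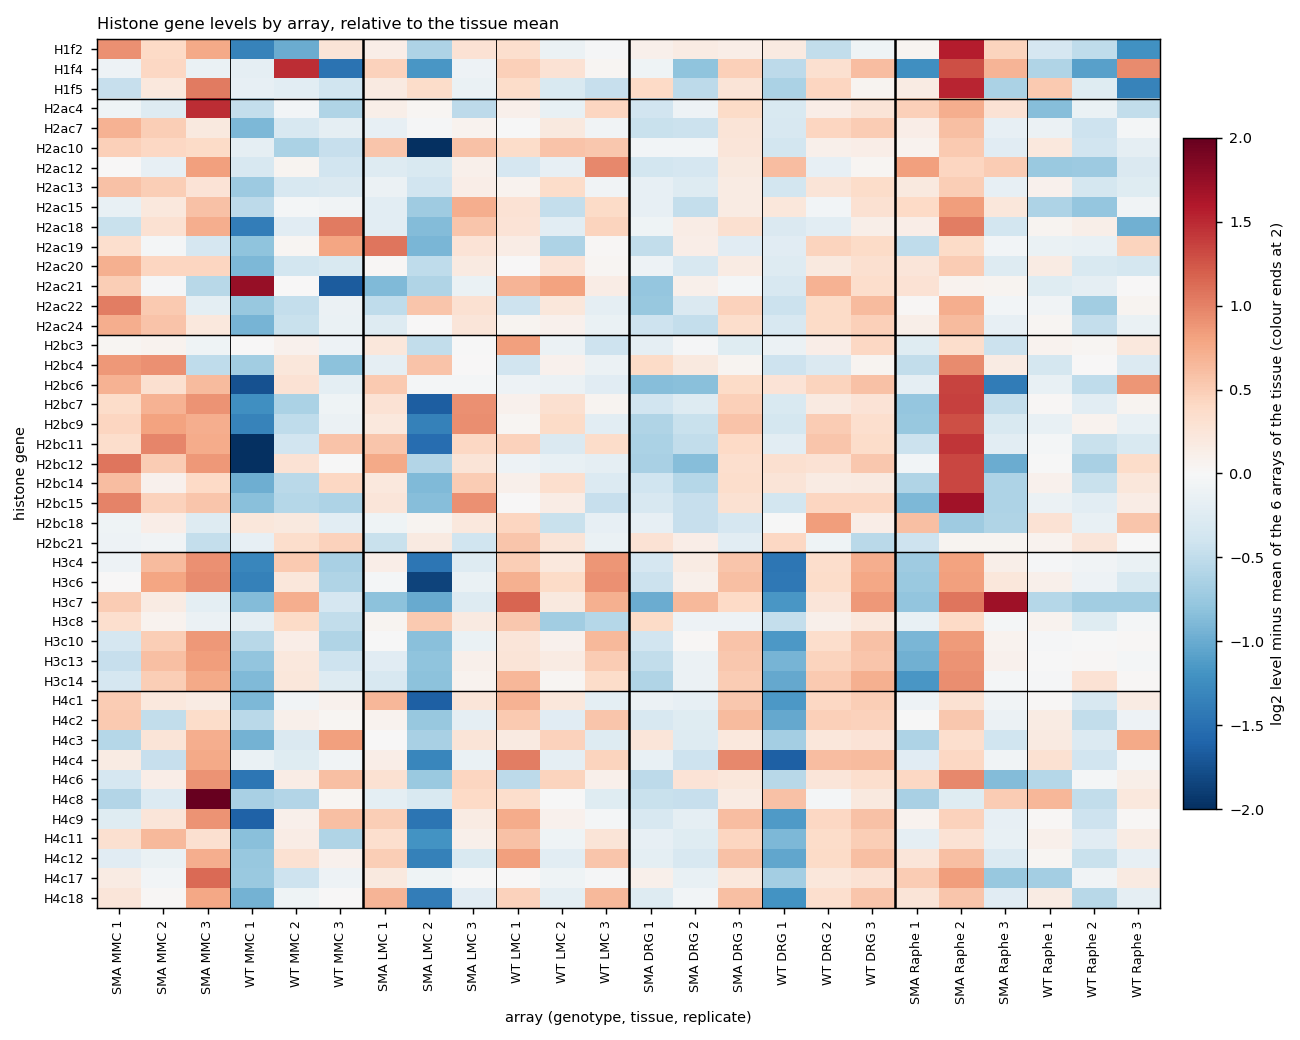
Log2 level of the 44 histone genes (rows, by class) on the 24 arrays (columns), minus the mean of the 6 arrays of the tissue; red is above and blue below it, with colours ending at 2 units. Columns of 1 colour across classes show arrays on which most members lie to 1 side. Such are WT MMC replicate 1, SMA LMC replicate 2 and SMA raphe replicate 2. H2ac21 lies to the other side on WT MMC replicate 1, and H2bc21 on SMA LMC replicate 2.

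The members varied together from array to array within groups. Over the 24 arrays, with each array taken as its deviation from its group mean, the median correlation of a pair was 0.451 in the 200 pairs of 1 class and 0.409 in the 746 pairs of different classes. The H3 genes (median 0.737) and H4 genes (0.607) were closest to their own class. The H2B (0.361), H2A (0.219) and H1 genes (0.077) were not. Their medians with the H4 genes were higher, at 0.483 for H2B, 0.454 for H2A and 0.332 for H1. H3c6 followed the mean of the other 43 members most closely (0.88), and H2bc21 (-0.311) and H2ac21 (-0.207) least. Pairs share the depth and amplification of an array, and may share probe targets, so these correlations describe the arrays.

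Probes of the same gene did not always point the same way. Among further probes above background on at least 3 arrays, the sign was that of the chosen probe for 15 of 18 in MMC, 10 of 16 in LMC, 13 of 20 (DRG) and 15 of 20 (raphe). H2ac18 and H2bc21 had a probe of the opposite sign in all 4 tissues.

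Genes listed for the processing of histone pre-mRNAs had no common direction, and none passed in any tissue. Of 28 on the array, 23 to 26 were tested by tissue, with medians of 0.02 (MMC), 0.04 (LMC), -0.01 (DRG) and 0.02 (raphe). Single members went both ways, with 14 of 23 above 0 in MMC and differences there between -1.10 and 0.93, and the MMC median was 0.22 without WT MMC replicate 1. The stem-loop binding protein gene Slbp differed by -0.01 in MMC and 0.20 in LMC. Lsm10, of the U7 ring, differed by 0.19 in MMC and -0.20 in LMC, and Lsm11, its partner, by -0.12 in MMC and -0.81 in LMC (7.41 in SMA against 8.22 in WT on average, adjusted p = 0.73). Of the list, Snrpb, a core Sm protein gene, was the other member with the smallest p in LMC, at -0.85 (adjusted p = 0.741), and in MMC these were Mecom (-1.10, adjusted p = 0.285) and Gon4l (0.93, adjusted p = 0.483), whose part in histone mRNA processing is uncertain.

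S phase genes did not share the histones' direction in the motor columns. In MMC 4 of 10 tested were above 0, with a median of -0.08, led by Mcm6 (-0.98, adjusted p = 0.391), a subunit of the replicative helicase, and Cdc6 (-0.52, 0.401), which loads it. In LMC 11 of 14 were above 0, with a median of 0.53, led by the cyclin gene Ccna2 (1.02, adjusted p = 0.723) and Mcm4 (0.74, 0.723). The medians were -0.21 in DRG and 0.12 in the raphe. They became 0.24 in LMC without SMA LMC replicate 2, -0.27 in the raphe without SMA raphe replicate 2 and -0.28 in MMC without WT MMC replicate 1. Replacement histones, made also outside S phase and mostly from polyadenylated mRNAs, had medians of 0.07 (MMC), -0.28 (LMC), -0.13 (DRG) and 0.13 (raphe). These became 0.10 in LMC without SMA LMC replicate 2, -0.06 in the raphe without SMA raphe replicate 2 and -0.02 in MMC without WT MMC replicate 1. Among them H3f3b differed by 0.13 in MMC and Cenpa, the centromeric H3, by 1.25 (adjusted p = 0.22), and in LMC H3f3a differed by -1.51 and Macroh2a1 by -0.32 (0.723 each). None of either list passed in any tissue.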

How the data were processed

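Per the file headers, the deposited tables give, for 45281 probes on 24 arrays, an intensity with its detection p-value. GenomeStudio is named in the submitters' processing notes. From 23.9 to 38.5% of an array's intensities are negative, which shows that background was subtracted by the authors. Detection p-values as deposited step by 1 in 936. A further table deposited by the authors holds log2 values normalized in an unstated way (column medians 7.54 to 7.57, rank correlation 1 with the intensities) and served as an alternative. The number of arrays limits the precision.

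Groups and replicate numbers come from the sample titles. Gene symbols come from the platform annotation, and all 56 histone symbols matched the RefSeq gene table of GRCm38.p6. limma 3.58.1 (R 4.3.3, neqc) applied normexp correction, using the detection p-values in place of control probes (offset 16), quantile normalization and log2. All 24 arrays entered 1 fit of group means (16 residual degrees of freedom; eBayes with trend). Benjamini-Hochberg adjustment covered all genes tested in a comparison (threshold 0.05). All p-values are two-sided. The scripts were tested on simulated data. Same-numbered SMA and WT arrays did not deviate together (2 of 12 pairs had a correlation over 0.1), so the numbers were not taken as pairs.

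The members, gene lists, markers and tests were chosen with earlier results of these data known, so no list was tested as a set. Values per array on the arrays compared are given for members that passed, for the largest differences in each direction (up to 4 for each motor column, 2 for DRG and raphe) and for the member of highest mean level in each class; H2ac13, H2ac24, H2ac7, H4c17 and the raphe H2A genes were named after their values were seen. The alternatives changed the scaling, offset, filter, probe choice, arrays fitted, weights, trend and replicate block, and left out each array in turn. Probe sequences were not used here.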

Additional observations from a re-analysis of the deposited data

Results flagged for a closer look

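H2ac21, an H2A gene, had every SMA array below every WT array in LMC (difference -1.08) and every SMA array above every WT array in the raphe (difference 0.28), so the raphe difference exceeded the LMC difference by 1.36 on the log2 scale. The difference between the tissues was not tested. In LMC the gene was above background on 1 of 3 SMA arrays, and its level followed the other histone genes least but for H2bc21.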

How the results depend on the processing

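In MMC 1 histone gene passed in the reported setting. It was 0 with median scaling in place of quantiles, with no filter on dim probes, with the mean of all detected probes of a gene, with only the arrays of the tissue, with array weights and with the replicate number as a block, 2 with no mean-variance trend, and between 0 and 2 when 1 array was left out. The replicate numbers do not pair the arrays, and 5 of 12 SMA arrays correlated best with their own number; the block changed no other count of histone genes. Array weights gave 1 histone gene, H1f2, in the raphe and in the mean over tissues, where the reported counts were 0. The counts for LMC, DRG and MMC minus LMC were 0 under every alternative run. The median MMC difference was above 0 under all 18 alternatives (0.39 to 0.89, with the lowest on the deposited normalized values). The LMC median ran from -0.63 to 0.00 (-0.08 with array weights), the DRG median from -0.41 to 0.15 and the raphe median from -0.03 to 0.43, and each changed sign without 1 array; the cause was not tested. Counts over all genes moved by more than 1.5 times: in MMC 111 became 5 with only the tissue's arrays, 38 with weights, 44 with the block, 51 without the filter and up to 252 without 1 array; in LMC 2 became 1 to 22, in DRG 1 became up to 14, in the raphe 26 became 6 to 47, over tissues 6 became 4 to 15 and for MMC minus LMC 6 became 0 to 18. The fit on only the arrays of the tissue does not apply to the mean over tissues. The medians over members above background on all 24 arrays (19 genes, a setting chosen after seeing the data, as was the split by class without SMA LMC replicate 2) were 0.86 (MMC), -0.24 (LMC), -0.05 (DRG) and 0.14 (raphe). With 3 arrays a group, small differences were not detectable, and 12 members were not above background on all 3 arrays of any group.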

Other observations

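Most members have short RefSeq genes: 53 of 56 span at most 1000 bases, with a median of 487. The other 3 are H2B genes, H2bc21 (2667 bases), H2bc4 (8282) and H2bc6 (37455). H2bc21 and H2bc4 followed the mean of the other histone genes weakly from array to array (r = -0.311 and 0.076), against a median of 0.701 over the 41 short members above background, while H2bc6 had 0.689. The threshold of 1000 bases was set after these values were seen.

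Outside the 56 genes, the gene whose deviations followed the mean of the 44 members most closely was H4f16 (r = 0.847 over 24 arrays, of 11145 genes searched), a histone H4 gene whose symbol falls outside the families chosen. Dynlrb1, of the dynein motor, had 0.823 and Kat2b, a histone acetyltransferase gene, 0.816.

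Among the 51 members with a promoter in the table, RefSeq starts place 6 H2A and H2B pairs head to head. These lie on chromosome 13, with between 163 and 280 bases between them. The neighbours H2ac20 and H2bc21 on chromosome 3, shown above, are not among the 6. They differed by 1.04 and -0.44 in MMC. Of the 6, H2ac7 and H2bc7, 173 bases apart, were the 1 pair with both members tested in MMC, where they differed by 0.92 and 1.30. In the raphe both members were tested in 3 pairs, and the H2A member had the larger difference in each: H2ac12 (1.18) with H2bc12 (0.20), H2ac15 (0.97) with H2bc15 (0.12) and H2ac7 (0.39) with H2bc7 (0.08). In DRG the same pairs had no common order. There H2ac12 had -0.33 and H2bc12 -0.77, H2ac15 and H2bc15 -0.32 each, and H2ac7 -0.41 and H2bc7 -0.11.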
